A study of Mus musculus with 4 samples.

Results

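The genes described here are the matrix proteases and inhibitors of the mouse: every gene in the deposited single-cell table named as a matrix metalloproteinase (Mmp), a tissue inhibitor of metalloproteinases (Timp), or a member of the Adamts or Adamts-like (Adamtsl) family. Their symbols alone decide which genes belong, with no measured value in that rule, and they number 50 of the 32285 genes in the table: 22 Mmp, 4 Timp, 19 Adamts and 5 Adamtsl genes. The cells were isolated from lymph-pumping collecting vessels, with tissue that lies around these, of C57BL/6J mice of both sexes (4 males, 4 females, age 12 to 14 weeks), with no treatment or genetic change named in the labels. For each mouse, vessels of 4 regions (popliteal, inguinal axillary, superficial cervical and mesenteric) were joined and digested with papain, collagenase A and dispase II. The cells were tagged per mouse and pooled per sex, but no label ties the 8 number suffixes of the cell barcodes to a mouse or sex. The matrix was therefore described as 1 pooled sample, with no comparison of the sexes, no test and no p-value.

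Mmp enzymes are zinc proteases that cut collagens, elastin, proteoglycans and other secreted proteins, and most are made as inactive precursors. Timp proteins bind the active site of these enzymes and, for some members, of Adamts enzymes too. Adamts enzymes are secreted proteases with thrombospondin repeats that cleave proteoglycans or trim procollagens, whereas Adamtsl proteins share the repeats, lack the protease domain and bind fibrillin microfibrils. In vessel walls and connective tissue these families set how matrix around cells is laid down and removed.

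The table held 24046 barcodes and 232753017 unique molecular identifiers (UMIs, counts of captured transcripts), with a median of 8684.5 per barcode and 23828933 to 32467001 per suffix. After filtering, 22942 cells in 40 clusters remained, and 21098 cells fell into 17 classes called "-like" from marker genes, none of which is one of the 50. In 15 of these classes every marker was at least 2-fold above its level in the other cells, while Cspg4 of the pericyte-like and Fscn1 of the dendritic-like class were not. Levels are counts of a gene's UMIs scaled to the same total in the pooled cells of each class (CPM), with exact Poisson 95% intervals that cover counting error only. A UMI is not scaled by gene length, so levels are compared between cells and not between genes. Droplets also hold free RNA, and B-like cells (309 cells), taken as a class that should lack both genes, carried 34.3 CPM (26.9 to 43.1) of Mmp2 and 21.1 CPM (15.4 to 28.3) of Mmp3, or 14.1 CPM of Mmp3 without suffix 3. Values of these genes near those levels are read here as background. The B-like level is not a floor for every class, since the summed level of the 7 fibroblast markers was 1015 CPM in B-like and 4909 CPM in T-like cells. The part of free RNA in values above the B-like level was not tested. No barcode sequence was shared within suffixes 1 to 4 or 5 to 8, and 44 were shared across these sets.

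Of the 50 genes, 39 reached 10 CPM in at least 1 class, against 42.7% of all genes. They were 13 of 22 Mmp, 4 of 4 Timp, 18 of 19 Adamts and 4 of 5 Adamtsl genes. Fibroblast-like cells (8138 cells) held the highest level of 11 of the 39, and 3.32% of all genes at 10 CPM were highest there. These were Mmp2, Mmp3, Mmp14, Mmp27, Timp1, Timp2, Adamts5, Adamts15, Adamts16, Adamtsl3 and Adamtsl4. Schwann-like cells held the highest level of 5 (12.0% of all genes), mesothelial-like cells of 5 (6.96%) and pericyte-like cells of 4 (3.54%). The intervals of the highest and the second class were apart for 27 of the 39, against 45.2% of all genes at 10 CPM. The remaining 11 genes stayed between 0 and 8.20 CPM in every named class, 8 of them under 1 CPM, and Mmp1b and Mmp10 had 0 UMIs in all cells.

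**Figure D1:**
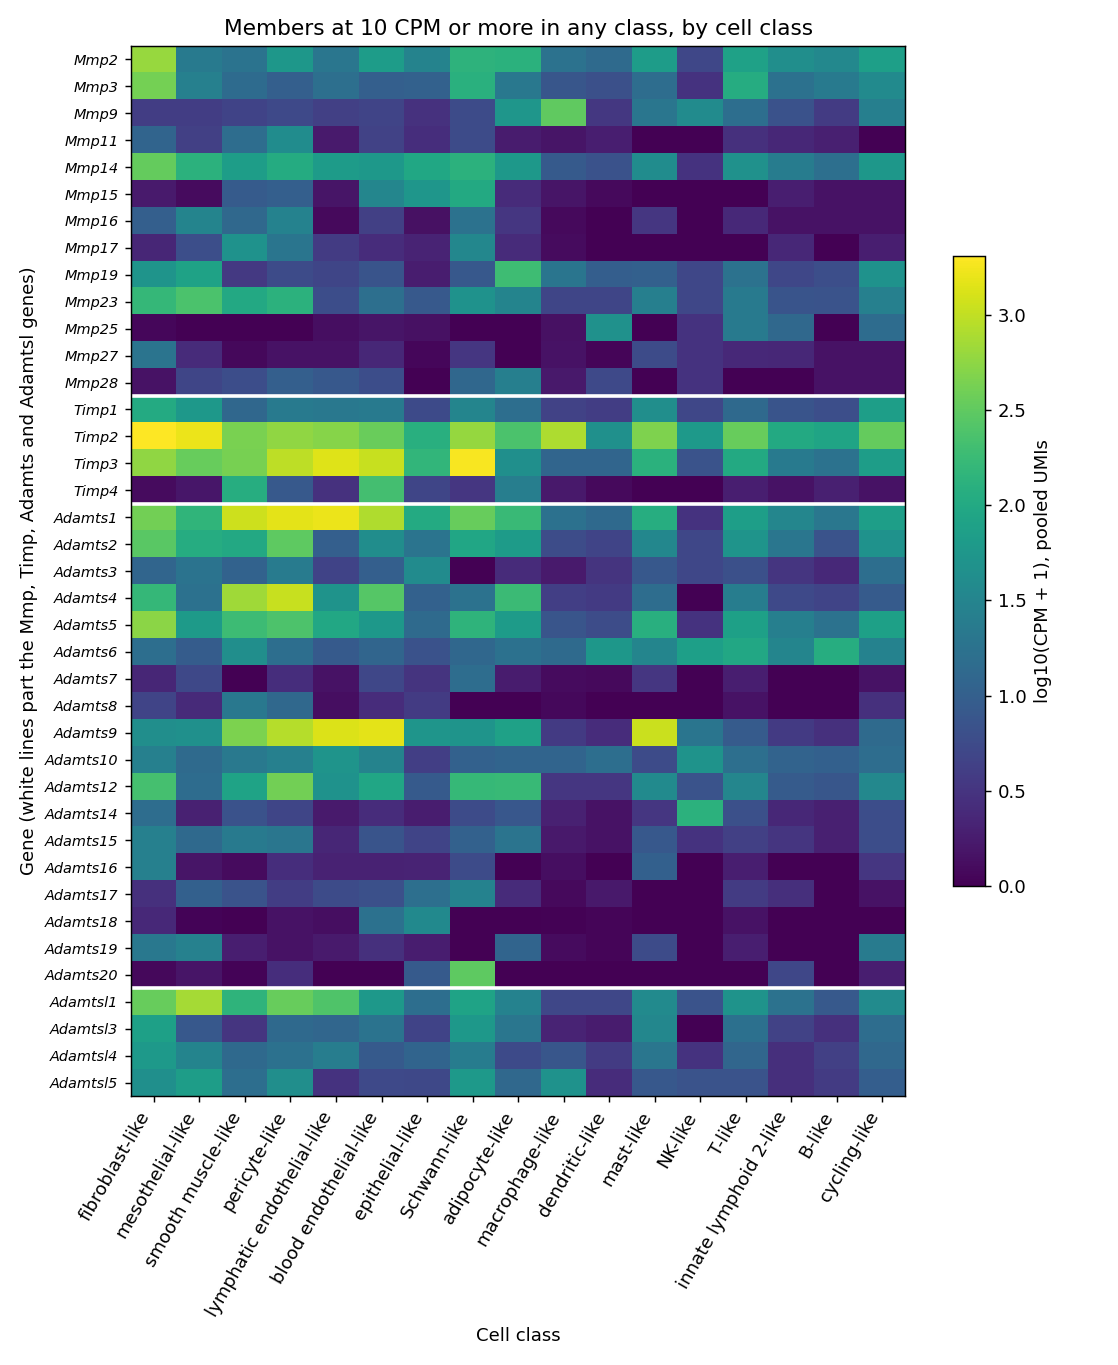
Level of the 39 genes that reached 10 CPM (rows, with white lines between the Mmp, Timp, Adamts and Adamtsl genes) in each of the 17 classes (columns), as log10 of CPM plus 1 from pooled UMIs. Mmp2 and Mmp3 were brightest in fibroblast-like cells and Mmp9 in macrophage-like cells. Adamts1 was brightest in lymphatic endothelial-like cells, closely followed by pericyte-like cells, and Adamts9 in the blood and lymphatic endothelial-like classes.

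Summed over a family, fibroblast-like cells carried 1639 CPM (1630.5 to 1647) of Mmp transcripts, the highest of all classes, with Schwann-like cells next at 622.0 CPM. In Schwann-like cells the fibroblast marker sum was 9545 CPM, and its part in their Mmp sum was not tested. That sum included Mmp2 at 136 CPM, Mmp14 at 133 CPM and Mmp3 at 124 CPM, or 60.5 CPM without suffix 2. Lymphatic endothelial-like cells (627 cells) carried 123 CPM of Mmp, 1933 CPM of Timp and 3282 CPM of Adamts transcripts. They thus held 15.7 Timp UMIs and 26.7 Adamts UMIs for each Mmp UMI. Fibroblast-like cells held 1.66 Timp and 1.10 Adamts UMIs per Mmp UMI, and macrophage-like cells held 2.14 Timp and 0.166 Adamts UMIs. The sum of Adamts transcripts peaked at 4494 CPM in pericyte-like cells, and that of Adamtsl transcripts at 838 CPM in mesothelial-like cells. Dendritic-like cells held the lowest Timp sum of all classes, 59.4 CPM, with 95.1 CPM of Mmp and 103 CPM of Adamts transcripts. Macrophage-like cells held less Adamts, at 62.8 CPM.

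**Figure D2:**
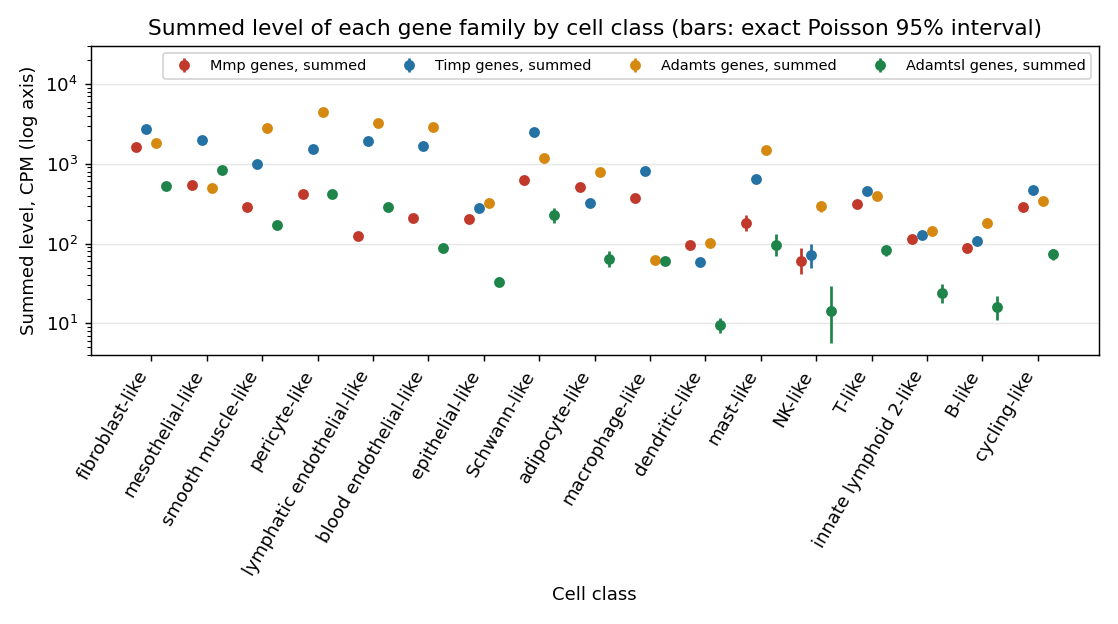
Summed level of the Mmp, Timp, Adamts and Adamtsl genes in each class, in CPM on a log axis, with exact Poisson 95% intervals as bars. Adamts sums were highest in pericyte-like cells, and Mmp sums were highest in fibroblast-like cells.

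Among the secreted Mmp enzymes, Mmp2, the gelatinase that cuts basement membrane and denatured collagen, was at 631 CPM (626 to 636) in fibroblast-like cells. Its level over the 8 suffixes ran from 503 to 754 CPM with a median of 636 CPM. Every suffix therefore lay far above the B-like level, and above every suffix of the smooth muscle-like cells, which ran from 12.5 to 25.9 CPM. A UMI of Mmp2 was seen in 92.0% of fibroblast-like cells (exact Clopper-Pearson interval 91.4% to 92.5%) and in 12.0% of B-like cells (8.57% to 16.1%), at median depths of 11304 and 4822 UMIs. After each cell was thinned to 1000 UMIs the shares were 41.3% and 2.27%, with 40 fibroblast-like cells and 1 B-like cell too shallow to enter. Mmp2 in lymphatic endothelial-like (18.8 CPM), smooth muscle-like (17.1 CPM) and macrophage-like cells (16.7 CPM) was below the B-like level. Mmp14, the membrane-bound enzyme that activates the Mmp2 precursor, was also highest in fibroblast-like cells, at 338 CPM, with 255 to 474 CPM over the suffixes. Mesothelial-like cells followed with 134 CPM of Mmp14, and B-like cells had 15.02 CPM.

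Mmp3, or stromelysin, a broad matrix protease, averaged 417 CPM (413 to 421) in fibroblast-like cells but differed widely among their clusters. Cluster 5, which is led by Tspan11, Pax1 and Mmp3 itself, held 1752 CPM, with 1250 to 2121 CPM over the 8 suffixes and a median of 1945 CPM. Cluster 8, led by Adamts16 and Col8a1, held 16.2 CPM, and cluster 10, led by Tcf21 and Asb4, held 31.6 CPM. Clusters 8 and 10 were thus at or near the B-like level for Mmp3, and the suffixes of cluster 5 did not overlap theirs, which ran from 6.70 to 42.7 CPM in cluster 8 and from 2.79 to 95.8 CPM in cluster 10. Clusters 4 (787 CPM) and 3 (703 CPM) lay between. The summed level of 13 immediate early and dissociation response genes was 29966 CPM in cluster 5, 23845 CPM in cluster 8 and 37730 CPM in cluster 10, and the part of that response in the Mmp3 levels was not tested.

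The fibroblast-like cells formed 8 clusters, and the 2 closest to Pi16 and Dpp4 fibroblasts, a subset known from the outer layers of many vessels, were set against the other 6. Of 28 genes at 10 CPM or more on either side, 11 were at least 2-fold apart, against 8.17% of all genes tested. Only Mmp27 of these was higher in the Pi16 and Dpp4 fibroblasts (2.95% of all genes), and 10 were higher in the others (5.23%). The median log2 ratio of the 28 genes was -0.35, against -0.02 over all genes tested. Mmp3 was 178 CPM in the Pi16 and Dpp4 fibroblasts and 527 CPM in the others, a 2.97-fold difference (2.88 to 3.06) with the same order in 8 of 8 suffixes. Adamts4, a proteoglycanase, was 45.1 against 210.3 CPM (4.67-fold, 4.41 to 4.94), and Adamts3, which trims procollagen II and the lymphatic growth factor precursor VEGF-C, was 1.69 against 15.3 CPM (9.06-fold, 6.82 to 12.3). The other genes lower in the Pi16 and Dpp4 fibroblasts were Mmp16, Mmp19, Adamts6, Adamts9, Adamts12, Adamts19 and Adamtsl3, by 2.15-fold to 3.48-fold, and of these Adamts6 and Adamts19 changed direction where cells were gated one by one. Cluster 12, led by Angptl7, also carried Pi16 (1811 CPM, against 2411 and 2359 CPM in clusters 2 and 9), as did cluster 8 (1386 CPM). Cluster 8 scored 1.05 for Pi16 and Dpp4, against 1.08 in cluster 2 and 0.318 in cluster 12, where the score is the mean over the marker genes of the log level, standardised over the fibroblast clusters. Both clusters scored higher for Col8a1 and were placed with the others.

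Mmp27, a little studied stromelysin-like enzyme, was 33.7 CPM in the Pi16 and Dpp4 fibroblasts and 10.4 CPM in the others (3.24-fold, 2.93 to 3.57), again with the same order in 8 suffixes. Its level was 42.9 CPM in cluster 2 and 21.5 CPM in cluster 9, and these clusters differ in origin, since 0.546% of cluster 2 and 85.5% of cluster 9 came from suffixes 1 to 4. Adamts5, the main aggrecan-cleaving enzyme of mouse cartilage, was 818 CPM in the Pi16 and Dpp4 fibroblasts and 424 CPM in the others, a 1.93-fold difference short of the 2-fold rule with the same order in 8 suffixes. Across all fibroblast-like cells Adamts5 was 549 CPM (544 to 553), its highest level of any class, and over the suffixes it ran from 347 to 705 CPM.

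**Figure D3:**
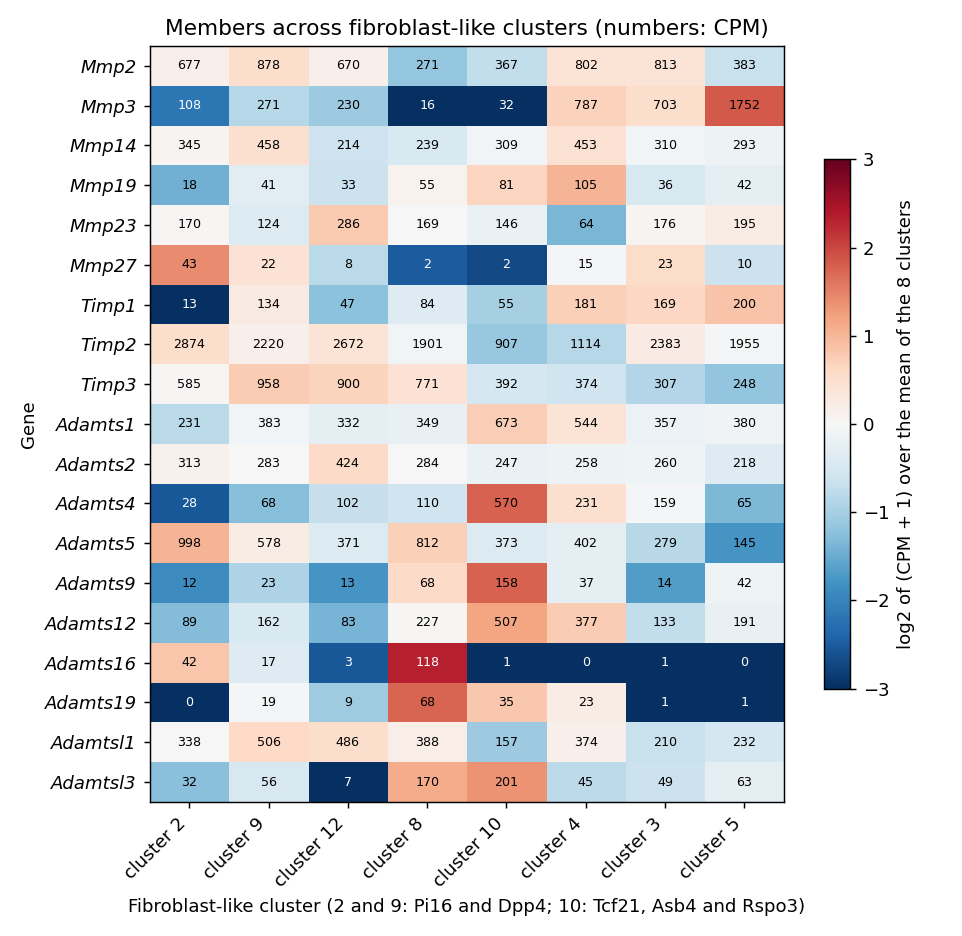
Level of 19 of the genes in the 8 fibroblast-like clusters, with CPM printed in each cell and colour for log2 of CPM plus 1 over the mean of the clusters. Mmp3 ranged from 16.2 CPM in cluster 8 to 1752 CPM in cluster 5, Adamts16 was highest in cluster 8, and Adamts4, Adamts9 and Adamts12 were highest in cluster 10.

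Other genes were also uneven among the fibroblast clusters. Adamts16 was 118 CPM (113 to 125) in cluster 8 and 26.3 CPM in the class, with 71.7 to 157 CPM over the suffixes of cluster 8, and it is one of the leading genes of that cluster. It was not confined to cluster 8, since the Pi16 and Dpp4 fibroblasts held 31.3 CPM. Cluster 10 held the highest fibroblast level of Adamts4 (570.2 CPM) and Adamts12 (507 CPM), a protease that cleaves cartilage oligomeric matrix protein. Adamts15, a versican-cleaving enzyme, was 26.6 CPM in the class and 72.3 CPM in cluster 9, but in 4 of 7 other settings pericyte-like or smooth muscle-like cells held more of it. Of the fibrillin-binding relatives, Adamtsl4 was 60.9 CPM in fibroblast-like cells and 29.8 CPM in mesothelial-like cells. Adamtsl3 was 75.4 CPM in fibroblast-like cells and 201 CPM in cluster 10.

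On chromosome 9, 9 of the Mmp genes lie close together (GENCODE M21 on GRCm38, 7272514 to 7699585), in the order Mmp13, Mmp12, Mmp1b, Mmp3, Mmp10, Mmp8, Mmp27, Mmp20 and Mmp7. Their transcripts were found in different cells. Mmp3 and Mmp27 were fibroblast genes, as above. Mmp12, the macrophage elastase, reached 89.7 CPM (82.5 to 97.4) in cluster 11, an unnamed myeloid cluster led by Lyz1, Ear2 and Mmp12, against 0.293 CPM in fibroblast-like cluster 5 and 0.177 CPM in cluster 2. Its suffixes in cluster 11 ran from 28.4 to 263 CPM with a median of 60.02 CPM. Mmp13 (collagenase 3) reached 26.5 CPM and Mmp8 (neutrophil collagenase) 8.83 CPM in cluster 24, an unnamed cluster led by S100a8 and S100a9, while Mmp20 and Mmp7 had 5 and 3 UMIs in all cells. In cluster 24 Mmp12 was 57.8 CPM, and 14.3 CPM without suffix 2. The start regions of the 4 of these genes with the most UMIs (42111 for Mmp3, 1756 for Mmp27, 868 for Mmp12 and 227 for Mmp13) are shown, since neighbours with different cell patterns can be compared letter by letter. Each runs from 250 bases before the gene start to 50 after it, 5′ to 3′, from RefSeq on GRCm38.p6. Capitals mark TGANTCA, which takes in TGACTCA and TGAGTCA, the sites bound by AP-1 factors such as Fos and Jun.
Mmp13 (chr9:7272264-7272563, plus strand): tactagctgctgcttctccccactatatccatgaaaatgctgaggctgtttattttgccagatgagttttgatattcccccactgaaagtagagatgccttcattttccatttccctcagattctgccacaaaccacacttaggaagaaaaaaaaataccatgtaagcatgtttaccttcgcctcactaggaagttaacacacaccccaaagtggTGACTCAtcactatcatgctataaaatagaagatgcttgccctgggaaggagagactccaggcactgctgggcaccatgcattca
Mmp12 (chr9:7344147-7344446, plus strand): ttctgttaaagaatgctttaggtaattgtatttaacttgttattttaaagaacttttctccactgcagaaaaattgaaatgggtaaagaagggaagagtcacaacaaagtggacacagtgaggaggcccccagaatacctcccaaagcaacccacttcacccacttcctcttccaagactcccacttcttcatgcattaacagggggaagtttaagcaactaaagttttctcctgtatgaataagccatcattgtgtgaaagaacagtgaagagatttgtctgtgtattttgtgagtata
Mmp3 (chr9:7445572-7445871, plus strand): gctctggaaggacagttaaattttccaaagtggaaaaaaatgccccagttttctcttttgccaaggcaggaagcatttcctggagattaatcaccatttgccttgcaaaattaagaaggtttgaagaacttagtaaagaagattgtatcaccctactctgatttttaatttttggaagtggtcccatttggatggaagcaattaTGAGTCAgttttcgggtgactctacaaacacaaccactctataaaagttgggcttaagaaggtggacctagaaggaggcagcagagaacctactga
Mmp27 (chr9:7571146-7571445, plus strand): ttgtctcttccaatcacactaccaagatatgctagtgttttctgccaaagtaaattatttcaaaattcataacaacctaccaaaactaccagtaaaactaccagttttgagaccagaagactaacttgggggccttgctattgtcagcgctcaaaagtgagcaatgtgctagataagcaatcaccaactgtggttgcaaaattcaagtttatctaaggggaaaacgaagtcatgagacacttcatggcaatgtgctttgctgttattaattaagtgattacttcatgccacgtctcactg

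TGANTCA reads alike on both strands. It was found in the windows of 6 of the 35 genes that matched a RefSeq entry (Mmp1b, Mmp3, Mmp7, Mmp10, Mmp13 and Mmp20), against 7.92% of 27025 gene windows. Any base was allowed at N, so these are not counts of AP-1 sites alone, and all 6 genes are among the 9 neighbours on chromosome 9. In Mmp3 it reads TGAGTCA and starts 46 bases before the gene start, and in Mmp13 it reads TGACTCA and starts 35 bases before it. The windows of Mmp12 and Mmp27 do not hold these letters. Of the 6 genes that do, Mmp3 alone reached 10 CPM in a class, and Mmp1b and Mmp10 had no UMI. TATAAA, searched on both strands and whatever else it overlapped, was in 10 of the 35 windows and 14.2% of all. CCAAT, searched the same way, was in 9 of the 35 windows and 38.0% of all.

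**Figure D4:**
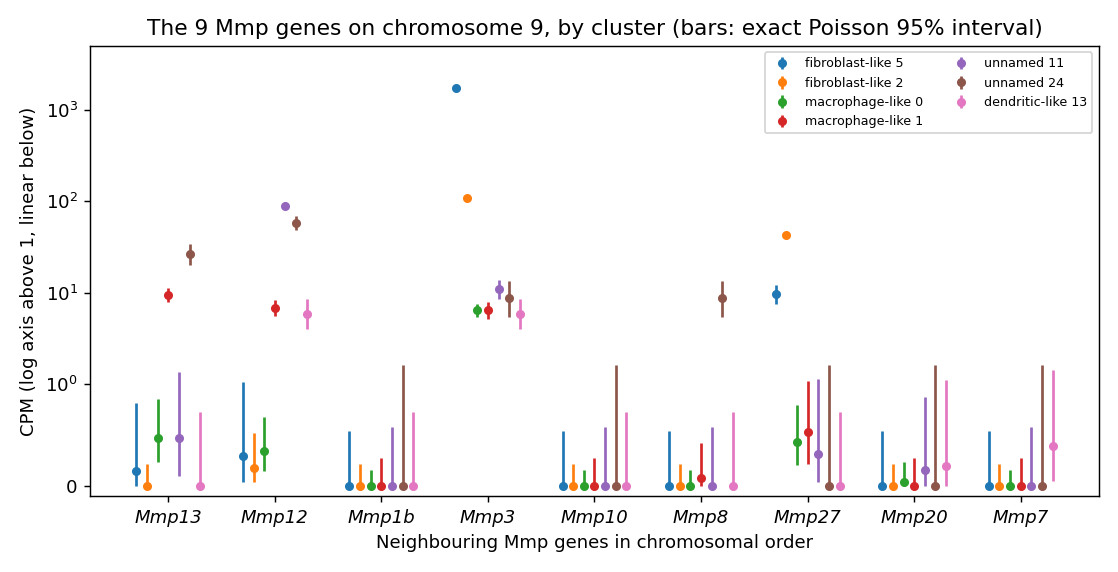
Level of the 9 neighbouring Mmp genes of chromosome 9, in chromosomal order, in 7 fibroblast-like, macrophage-like, dendritic-like and unnamed clusters, in CPM (log axis above 1, linear below) with exact Poisson 95% intervals. Mmp3 peaked in fibroblast-like cluster 5, Mmp27 in fibroblast-like cluster 2, Mmp12 in cluster 11, and Mmp13 and Mmp8 in cluster 24.

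Fibroblast-like and mesothelial-like cells (1005 cells, the lining cells of body cavities), both rich in Dcn and collagen transcripts, differed in 18 of 28 genes by at least 2-fold, against 26.2% of all genes. Of these, 16 were higher in fibroblast-like cells (11.6% of all genes) and 2 in mesothelial-like cells (14.6%), and the median log2 ratio was 1.01, against -0.15 over all genes. Mmp2 was 631 against 21.7 CPM (29.1-fold, 26.2 to 32.5) and Adamts12 217 against 13.6 CPM (15.9-fold, 13.9 to 18.3), both with the same order in 8 suffixes. Mmp2 in mesothelial-like cells was thus below the B-like level. Mmp11, Adamts1, Adamts2, Adamts10 and Adamts14, among others, were higher in fibroblast-like cells too, in 8 of 8 suffixes. The 2 genes higher in mesothelial-like cells were Adamtsl1, at 731 against 345 CPM (2.12-fold, 2.08 to 2.17), and the membrane-bound Mmp16, at 30.1 against 8.98 CPM (3.35-fold, 2.98 to 3.76), both in 8 of 8 suffixes. Mmp23, a small membrane-anchored enzyme, was 234 CPM in mesothelial-like and 159 CPM in fibroblast-like cells, with 199 to 337 and 101 to 201 CPM over the suffixes, ranges that overlap slightly, though the order was the same in each of the 8 suffixes. Mesothelial-like cells also held the highest level of Adamtsl5 (69.4 CPM) and Adamts19 (27.7 CPM, or 13.5 CPM in suffixes 5 to 8), but these intervals met those of the second class. So did that of Mmp16, which was 28.0 CPM in pericyte-like cells and highest there in suffixes 5 to 8.

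Among the inhibitors, Timp2, which both inhibits Mmp2 and helps Mmp14 activate it, reached 10 CPM in all 17 classes. The part of free RNA in its lower levels was not tested. It was 2038 CPM (2029 to 2047) in fibroblast-like cells, 1606 CPM in mesothelial-like cells, 790.4 CPM in macrophage-like cells and 45.2 CPM in dendritic-like cells, with 85.9 CPM in B-like cells. Timp2 in fibroblast-like cells ran from 1426 to 2512 CPM over the suffixes. Timp1, a secreted inhibitor induced in injury, was 105 CPM (103 to 107) in fibroblast-like cells, but 1 suffix held 373 CPM and the other 7 held 48.8 to 77.2 CPM. Without that suffix, number 7, Timp1 in fibroblast-like cells was 63.5 CPM.

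Timp3, the inhibitor that stays bound to matrix and blocks several Adamts enzymes, was highest in Schwann-like cells (104 cells) at 1895 CPM (1765 to 2031). Lymphatic endothelial-like cells followed with 1400.0 CPM, blood endothelial-like cells with 1081 CPM and pericyte-like cells with 944 CPM. Within the lymphatic endothelial-like class, cluster 34 (72 cells, led by Ccl21a, Reln and Mmrn1) held 3636 CPM (3521 to 3754) of Timp3 and cluster 15 (555 cells, led by Nts and Clca3a1) 1117 CPM. Only 2 suffixes held enough cells to check this order, and both had more in cluster 34. Timp4, an inhibitor known from heart and vessels, was 209 CPM in blood endothelial-like cells, its highest level. Smooth muscle-like cells held 114 CPM of Timp4 and adipocyte-like cells 25.3 CPM, and the other 14 classes were under 10 CPM.

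The lymphatic and blood endothelial-like classes (627 and 457 cells) differed by at least 2-fold in 9 of 21 genes, against 21.1% of all genes tested. The 2 higher in lymphatic cells compare with 8.07% of all genes and the 7 higher in blood cells with 13.0%, and the median log2 ratio of the 21 genes was -0.13. Timp4 was 1.94 CPM in lymphatic and 209 CPM in blood endothelial-like cells (108-fold, 67.6 to 182). Its suffixes ran from 0 to 3.60 CPM and from 86.6 to 375 CPM, so the classes did not overlap. In blood endothelial-like cells it was 103 CPM with cells gated one by one and 318 CPM as a mean over cells. Adamts4 was 48.7 against 276 CPM (5.66-fold, 5.06 to 6.33), with 15.3 to 94.8 and 188 to 375 CPM over the suffixes. Mmp15, a membrane-type enzyme, was 0.539 against 31.8 CPM (59.0-fold, 24.6 to 185). Mmp2, Mmp23, Adamts2 and Adamts18 were also higher in blood endothelial-like cells, and Adamts2 there was 40.5 CPM, or 25.6 CPM without suffix 7. The sum of 7 fibroblast markers, with Dcn the most abundant, was 1014 CPM in lymphatic and 2334 CPM in blood endothelial-like cells, all 7 at 10 CPM or more in both, and its part in the Mmp2, Mmp23 and Adamts2 levels was not tested. Higher in lymphatic endothelial-like cells were Adamtsl1, at 248 against 57.7 CPM (4.30-fold, 3.73 to 4.97) in 8 of 8 suffixes, and Adamtsl4, at 23.9 against 7.55 CPM (3.17-fold, 2.13 to 4.88) in 7 of 8.

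Of the proteoglycanases, Adamts1 was highest in lymphatic endothelial-like cells, 1.10-fold (1.06 to 1.14) above pericyte-like cells at 1497 CPM. Adamts9 was highest in blood endothelial-like cells. Pericyte-like cells held more Adamts1 in 5 and more Adamts9 in 4 of 7 other settings. Blood endothelial-like cells held less Adamts1 than pericyte-like and smooth muscle-like cells (1156 CPM). With other filters, doublets kept, a finer clustering or gating cell by cell, the pericyte-like class was drawn anew and can hold other cells. The means over cells and suffixes 1 to 4 kept the same class calls, and Adamts1 was highest in pericyte-like cells in both. Adamts1 was 1642 CPM (1616 to 1669) in lymphatic and 827 CPM in blood endothelial-like cells, a 1.99-fold difference (1.91 to 2.06) just short of the 2-fold rule, with the same order in 8 suffixes. Over the suffixes it ran from 995 to 2108 CPM and from 753 to 914 CPM. Adamts9 was 1366 CPM in lymphatic and 1491 CPM in blood endothelial-like cells and higher in blood in 5 of 8 suffixes, so these did not differ beyond the spread. Within the lymphatic class Adamts9 split by cluster, with 1528 CPM in cluster 15 and 83.5 CPM in cluster 34 (18.3-fold, 14.8 to 22.9), and Adamts1 was 1754 against 756 CPM. Between those clusters 9 of 16 genes were 2-fold apart, against 15.5% of all genes, but only 2 suffixes held enough cells to check the order. Adamts10, a fibrillin-linked enzyme, was at 50.9 CPM for lymphatic endothelial-like cells and at 49.0 CPM for NK-like cells, and these intervals met. Adamts3 was 3.67 CPM in lymphatic endothelial-like cells and highest in epithelial-like cells at 38.1 CPM, or 21.8 CPM with cells gated one by one.

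Blood endothelial-like cells also held 2 kinds. Cluster 21 (310 cells, led by Sox17, Rbp7 and Gpihbp1) and cluster 29 (147 cells, led by Selp, Sele and Aqp1) differed in 13 of 21 genes, against 23.3% of all genes. Timp4 was 364 CPM in cluster 21 and 6.21 CPM in cluster 29 (58.6-fold, 31.7 to 123), and Timp3 1632 against 362 CPM, both in 7 of 7 suffixes. Adamts9 went the other way, with 1078 CPM in cluster 21 and 2028 CPM in cluster 29, also in 7 of 7, but at 1.88-fold it missed the 2-fold rule. Adamtsl1 was 25.3 CPM in cluster 21 and 100.1 CPM in cluster 29, and Adamts18 5.72 against 29.8 CPM. The sum of 7 fibroblast markers was 3628 CPM in cluster 21 and 648 CPM in cluster 29, and its part in the higher Mmp14, Adamts2, Adamts5 and Adamts12 of cluster 21 was not tested.

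Smooth muscle-like cells split along the same inhibitor. Cluster 17 (386 cells, led by Pln, Timp4 and Rergl) and cluster 6 (1055 cells, led by Actg2, Myocd and Slc22a3) were 2-fold apart in 16 of 27 genes, against 23.4% of all genes. Timp4 was 484 CPM (459 to 510.3) in cluster 17, where it is a leading gene, and 0.433 CPM from 4 UMIs in cluster 6. Over the 8 suffixes it ran from 389 to 667 CPM in cluster 17 and from 0 to 1.44 CPM in cluster 6. Adamts9 was 1680 CPM in cluster 17 and 73.8 CPM in cluster 6 (22.8-fold, 21.01 to 24.7), with no overlap of the suffixes, which ran from 1433 to 2130 and from 38.1 to 112 CPM. Adamts8, Adamts14, Adamts15 and Mmp28 were also higher in cluster 17, and Adamts1 was 1845 against 951 CPM (1.94-fold) with the same order in 8 suffixes.

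In the other direction, Mmp23 was 125 CPM in cluster 6 and 8.01 CPM in cluster 17 (15.7-fold, 10.4 to 24.8), and Adamts6 55.4 against 3.13 CPM (17.7-fold, 9.24 to 38.9), both in 8 of 8 suffixes. Mmp17, anchored in the membrane by a lipid, was 55.0 against 24.4 CPM, and in the whole class 47.5 CPM, its highest level. That interval met the one of Schwann-like cells (33.4 CPM), which held the highest level in 2 of 7 other settings. The fibroblast marker sum was 2254 CPM in cluster 6 and 665 CPM in cluster 17, and its part in the higher Mmp3, Timp1, Timp2 and Adamts12 of cluster 6 was not tested. In the classes as a whole, the smooth muscle-like class held 1156 CPM of Adamts1 and the pericyte-like class 1497 CPM. The immediate early sum stood at 23664 CPM for smooth muscle-like cells, at 30776 CPM for pericyte-like cells and at 18707 CPM for lymphatic endothelial-like cells. It was highest, at 36843 CPM, in mesothelial-like cells, where Adamts1 was 145 CPM, and the part of that response in the Adamts1 levels was not tested.

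The pericyte-like class was 1 cluster of 308 cells led by Colec11, Rgs5 and Tnc, and it stood close to smooth muscle by its markers. Adamts4 was 1072 CPM (1030.0 to 1115) there, its highest level, and the smooth muscle-like class held 690.4 CPM. It was 1813 CPM with stricter filters and 1681 CPM with doublets kept, where the pericyte-like class was drawn anew and can hold other cells. Of 26 genes, 13 were 2-fold apart between these classes, against 13.4% of all genes, with 10 higher in pericyte-like cells (8.41%), 3 in smooth muscle-like cells (5.04%) and a median log2 ratio of -0.64 against -0.02. Adamts12 was 399 against 83.0 CPM (4.81-fold, 4.39 to 5.26), Adamts2, a procollagen N-proteinase, 305 against 97.9 CPM, and Timp3 944 against 423 CPM, each higher in pericyte-like cells in 8 of 8 suffixes. Mmp11, or stromelysin 3, was 39.3 against 14.3 CPM, but 26.0 CPM in pericyte-like cells with stricter filters, 21.7 CPM at a finer clustering and 15.6 CPM with cells gated one by one. Adamts2 was 287 CPM in fibroblast-like cells, whose interval met that of the pericyte-like cells, and pericyte-like cells gated one by one held 152 CPM. Timp4 (114 against 7.33 CPM), Mmp17 and Adamts6 were higher in smooth muscle-like cells, but the direction of Timp4 turned where classes were gated cell by cell. Mmp2, Mmp16, Adamts3, Adamtsl1 and Adamtsl3 were higher in pericyte-like cells as well but changed direction where the class was drawn otherwise, and Adamtsl3 in pericyte-like cells was 12.5 CPM, or 6.18 CPM without suffix 8. The fibroblast marker sum stood at 7719 CPM for pericyte-like cells, with Dcn at 4041 CPM, and at 2009 CPM for smooth muscle-like cells, and its part in these differences was not tested.

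**Figure D5:**
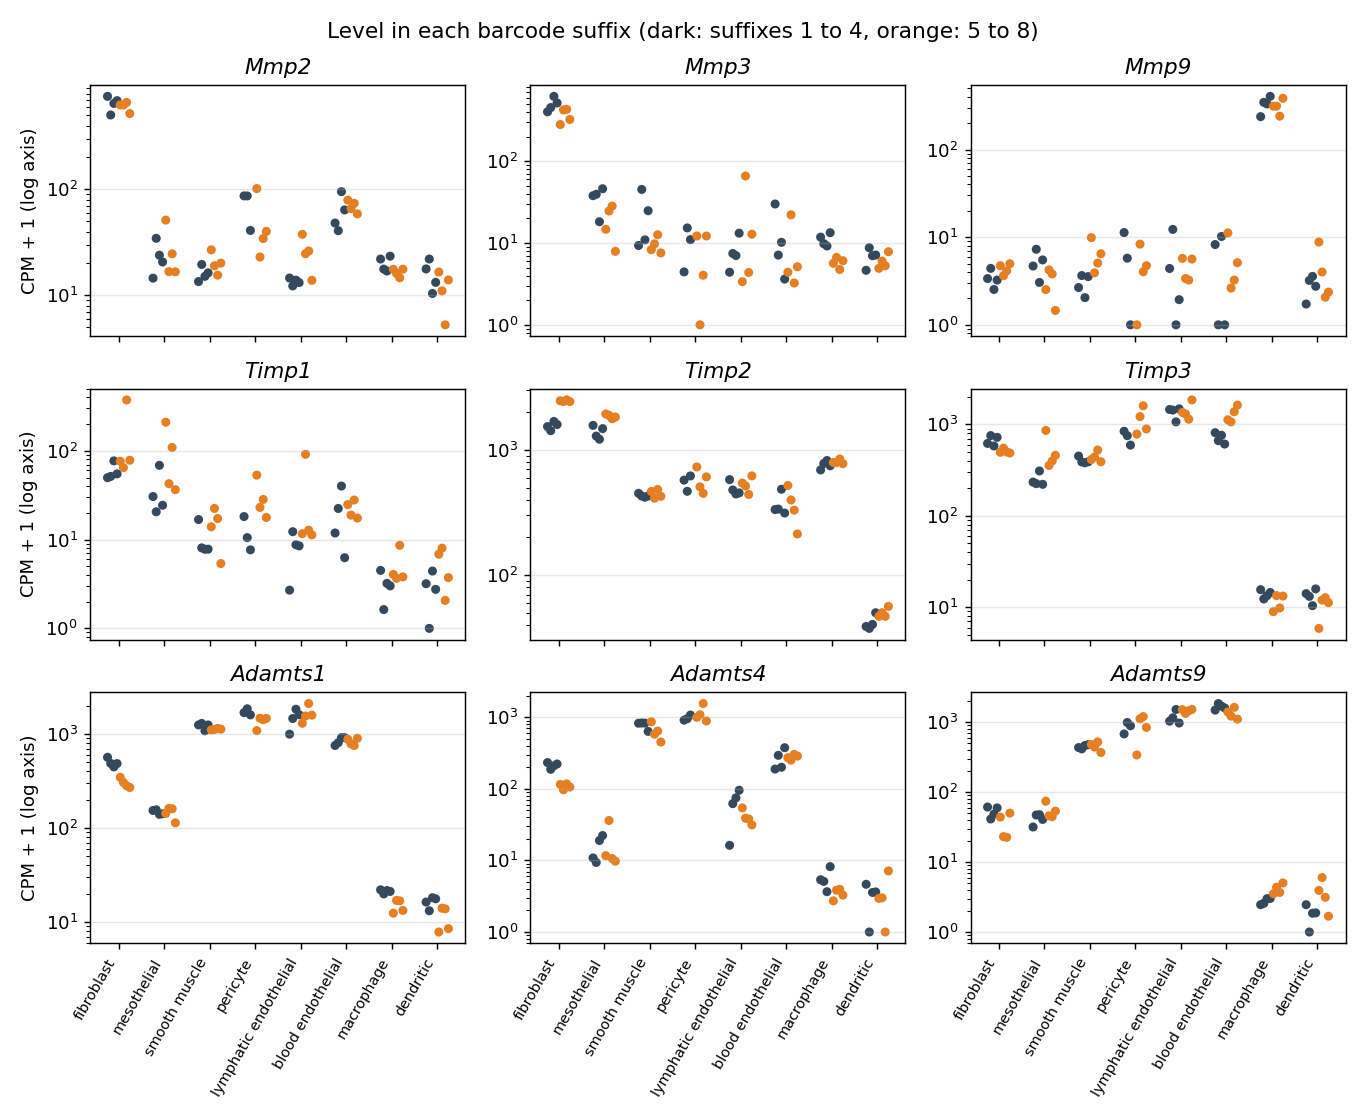
Level of 9 genes in each barcode suffix (points, dark for suffixes 1 to 4 and orange for 5 to 8) in 8 classes, as CPM plus 1 on a log axis. Mmp9 stood apart in macrophage-like cells in every suffix, and Timp1 had 1 high point, 373 CPM, among the fibroblast-like cells.

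Among the myeloid classes, Mmp9, the gelatinase of leukocytes, was found mainly in macrophages. It was 315 CPM (309.6 to 320.5) in macrophage-like cells (6032 cells), with 237 to 404 CPM over the suffixes, and 2.44 CPM in dendritic-like cells (129-fold, 85.2 to 206). A UMI of Mmp9 was seen in 69.1% of macrophage-like cells and 0.971% of B-like cells, or 25.0% and 0.325% after thinning to 1000 UMIs. The macrophage-like clusters 0, 1 and 14 held 331, 303 and 271 CPM. Between macrophage-like and dendritic-like cells 6 of 10 genes were 2-fold apart, against 36.2% of all genes. Timp2 was 17.5-fold higher (15.9 to 19.3) and Adamtsl5 28.9-fold higher (17.5 to 51.8) in macrophage-like cells, with Adamtsl5 at 48.2 against 1.66 CPM. Mmp19, a secreted enzyme, was 18.2 CPM in macrophage-like cells and 159 CPM in cluster 11.

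Higher in dendritic-like cells were Mmp25, a lipid-anchored leukocyte enzyme, at 46.5 against 0.415 CPM (112-fold, 69.1 to 194), and Adamts6 at 56.1 against 12.9 CPM (4.34-fold, 3.83 to 4.91), both in 8 of 8 suffixes. Mmp25 lay in cluster 13 (led by Ccl22, Ccl17, Mmp25 and Ccr7) at 79.9 CPM, with 49.8 to 94.96 CPM over the suffixes, and was 4.03 CPM in cluster 20 (led by Xcr1 and Clec9a), whose suffixes ran from 0 to 8.14 CPM. These clusters did not overlap.

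Epithelial-like cells (343 cells, all from suffixes 1 to 4) held cluster 26 (183 cells, led by Krt17, Krt15, Krt5 and Krt14) and cluster 27 (160 cells, led by Wfdc2 and Cxcl15). They were 2-fold apart in 15 of 19 genes, against 29.1% of all genes, with 14 higher in cluster 26 (16.5%) and 1 in cluster 27 (12.6%). Adamts18 was 112 CPM in cluster 26 and 0.206 CPM, from 1 UMI, in cluster 27, a ratio of 541 with a counting interval of 96.3 to 21458. In cluster 26 it ran from 42.0 to 261 CPM over 4 suffixes, and without suffix 1 it was 61.4 CPM. In the whole class Adamts18 was 35.9 CPM, or 21.8 CPM without suffix 1, 6.94 CPM with cells gated one by one and 60.8 CPM as a mean over cells. Adamts1 was 255 CPM in cluster 26 and 31.5 CPM in cluster 27 (8.10-fold, 6.77 to 9.74), and Timp3 337 against 61.0 CPM. The fibroblast marker sum was 964 CPM in cluster 26 and 447 CPM in cluster 27, and its part in the levels of Mmp2, Mmp23, Timp2, Adamts2, Adamts5 and Adamts12 in cluster 26 was not tested. Adamts20, a versican-cleaving enzyme known from pigment cell migration, was 23.6 CPM in cluster 26 and had no UMI in cluster 27. Mmp15 alone was higher in cluster 27, at 68.4 against 23.6 CPM (2.90-fold, 2.17 to 3.94).

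Several genes were high in small classes. Adamts9 was 1097 CPM (999.6 to 1201) in mast-like cells (254 cells), below its level in both endothelial-like classes. A UMI of Adamts9 was seen in 63.8% of these at a median depth of 1228.5 UMIs and in 0.971% of B-like cells, or in 53.3% of 165 mast-like cells and 0% of 308 B-like cells after thinning to 1000 UMIs, with 89 mast-like cells too shallow to enter. Adamts20 was 307 CPM (257 to 365) in Schwann-like cells and at most 7.56 CPM in the other classes, and its levels in the 2 Schwann-like clusters were 305 and 310.3 CPM. Mmp15 was 100.1 CPM in Schwann-like cells. Adamts17 (28.6 CPM) and Adamts7 (14.3 CPM, or 8.50 CPM without suffix 7) were highest there too, but their intervals met those of the second class. Adamts14, a procollagen N-proteinase, was 133 CPM (102 to 169) in NK-like cells (96 cells) and 14.4 CPM in fibroblast-like cells. Adamts6 was 116 CPM in B-like and 94.8 CPM in T-like cells, and these intervals met. Mmp19 was 188 CPM in adipocyte-like cells (116 cells), or 80.3 CPM as a mean over cells and 77.7 CPM in suffixes 5 to 8. In 5 of 7 other settings, these included, it was highest in mesothelial-like cells. However, in suffixes 1 to 4 too few adipocyte-like cells were left for the class to enter. Mmp28 was 26.1 CPM in adipocyte-like cells, or 16.2 CPM without suffix 5, 7.70 CPM as a mean over cells and 40.4 CPM in suffixes 5 to 8. In 4 of 7 settings, the mean over cells included, Mmp28 was highest in Schwann-like or lymphatic endothelial-like cells. In another of these, suffixes 1 to 4, the adipocyte-like and Schwann-like classes both had too few cells to enter. Adamts8 was highest in smooth muscle-like cells at 20.2 CPM.

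Barcodes with suffixes 1 to 4 and those with 5 to 8 form sets that no label ties to a group of mice, and in fibroblasts some of the genes stood apart between the sets. In fibroblast-like cells, 3 of 27 genes were at least 2-fold apart with no overlap of suffixes, against 3.20% of all genes. Adamts12 was 297, 336, 327 and 229 CPM in suffixes 1 to 4 and 129, 157, 119 and 167 CPM in suffixes 5 to 8. Adamts14 was 22.3, 18.1, 22.97 and 20.98 CPM in the first set and 6.60, 9.58, 9.32 and 8.78 CPM in the other. Adamts19 was 23.5 to 33.8 CPM in the first set and 10.1 to 19.8 CPM in the other. The sets also hold different clusters: 0.546% of the cells of cluster 2 and 5.52% of those of cluster 3 came from suffixes 1 to 4, against 84.8% of cluster 4, 85.5% of cluster 9 and 73.1% of cluster 10, where Adamts12 was highest. The part of this in the 3 differences was not tested.

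Within the Pi16 and Dpp4 fibroblasts, 4 of 23 genes were apart in this way, against 4.82% of all genes. Mmp27 was 12.6 to 30.3 CPM in suffixes 1 to 4 and 37.5 to 46.9 CPM in suffixes 5 to 8, and Adamts16 was 7.33 to 21.3 and 25.2 to 57.9 CPM. Adamts14 (33.2 to 49.0 and 7.37 to 12.3 CPM) and Adamts15 (54.0 to 97.8 and 3.35 to 19.6 CPM) went the other way. These fibroblasts are made of cluster 2, with 0.546% of its cells from suffixes 1 to 4, and cluster 9, with 85.5%, and the part of this was not tested.

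In cluster 5, 4 of 21 genes were apart, against 2.64% of all genes. Adamts2 was 137 to 166 CPM in suffixes 1 to 4 and 261 to 378 CPM in suffixes 5 to 8, and Adamtsl3 was 60.3 to 102 and 33.5 to 40.6 CPM. In cluster 8, 1 of 27 genes was apart, against 1.33% of all genes, and that gene, Adamts6, was 14.9 to 33.1 CPM in the first set and 77.1 to 94.1 CPM in the other. In mesothelial-like cells 1 of 22 genes was apart, against 1.72% of all genes: Adamts5 was 70.5 to 99.96 CPM in the first set and 29.3 to 57.9 CPM in the other. In cluster 10 it was 1 of 25, against 1.47%, namely Mmp16 at 15.9 to 19.8 and 5.58 to 12.6 CPM. In smooth muscle-like (24 genes, 0.509% of all genes), macrophage-like (9 genes, 0.597%) and lymphatic endothelial-like cells (15 genes, 0.452%), 0 of the genes were apart.

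Other genes of matrix turnover were counted from lists of related genes. Of 7 genes of the plasminogen activation system, which activates several Mmp precursors, 5 reached 10 CPM in fibroblast-like (26.0% of all genes), 4 in lymphatic endothelial-like (26.1%) and 2 in macrophage-like cells (24.4%). Plat, tissue plasminogen activator, stood at 1622 CPM for lymphatic and at 72.0 CPM for blood endothelial-like cells. Serpine2, a protease inhibitor, peaked at 296 CPM in the smooth muscle-like class, and Plaur, the urokinase receptor, at 281 CPM in B-like cells. Of 7 genes on a list made mostly of other extracellular inhibitors and clearance genes, 5 reached 10 CPM in fibroblast-like cells, against the same 26.0%. Among them Lrp1, a receptor that takes up Mmp and Adamts enzymes, stood at 524 CPM for fibroblast-like cells and at 14.99 CPM for lymphatic endothelial-like cells. Sparc, a collagen-binding matrix protein and not a protease inhibitor, was 7906 CPM in fibroblast-like cells. The cathepsin inhibitor Cst3 was 9505 CPM in dendritic-like cells.

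Of 8 activators and partners, all reached 10 CPM in fibroblast-like and lymphatic endothelial-like cells, 6 in macrophage-like cells and 7 in B-like cells, where 24.5% of all genes did. Furin, which cuts the precursors of membrane-type Mmp and Adamts enzymes, was 967 CPM in innate lymphoid 2-like cells and 20.7 CPM in fibroblast-like cells. Cd44, a hyaluronan receptor that can hold Mmp enzymes at the cell surface, reached its highest level, 1171 CPM, in dendritic-like cells. Of 7 procollagen processing genes, 6 were highest in fibroblast-like cells, as were 3.32% of all genes at 10 CPM, among them Col3a1 at 5969 CPM, Col1a2 at 5180.2 CPM and Pcolce, an enhancer of procollagen cleavage, at 775 CPM. Of 9 proteoglycan and elastic fibre substrates, 5 were highest there, against the same 3.32%, including Dcn at 14975 CPM, Fbn1 at 1405 CPM and Bgn at 602 CPM. Of 5 lysosomal matrix proteases, 3 were highest in macrophage-like cells (7.92% of all genes at 10 CPM), Ctsb at 3221 CPM, Ctsd at 936 CPM and Ctss at 628 CPM, and Ctsl reached 1466 CPM in fibroblast-like cells, its highest level. Col1a1, Col1a2, Col3a1 and Dcn are also among the markers that named the fibroblast-like class.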

How the data were processed

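Single-cell RNA was read in 2 gene expression libraries, with 2 tag libraries beside them, 1 of each for the pooled male and 1 of each for the pooled female mice. The authors deposited 1 matrix of raw UMI counts per gene and barcode, made with Cell Ranger 7.1.0 and Seurat 4.3.0.1 on mm10, per the submitters' processing notes. The gene annotation and strand setting of the counting are not given in the sources used here, so reads of Timp1, Timp3 and Timp4, which overlap Syn1, Syn3 and Syn2 on the opposite strand, may be shared with those genes. Gene coordinates are from GENCODE M21 and promoter windows from RefSeq.

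The replicate is the mouse, and since no suffix is tied to a mouse or sex, everything was pooled and only counting error is given; reads copied by PCR are collapsed by UMI, but cells of a mouse are not independent. Barcodes with under 500 UMIs, under 300 genes or 15% or more mitochondrial UMIs (380) and 724 called doublets (3.06%) were removed. Doublets were scored against simulated ones, and cells were clustered with scanpy 1.11.5 and leidenalg 0.10.2 on 2000 variable genes without the 50 genes, 30 components, 15 neighbours and resolution 1 (Python 3.11.15, scikit-learn 1.9.0). Clusters were named from 117 markers of 21 candidate classes, with 7 clusters (1844 cells) left unnamed. UMIs were summed per class and scaled to CPM, with exact intervals from scipy 1.17.1. Genes at 10 CPM or more on either side entered a comparison, and 2-fold apart means that the ratio of CPM passes that size, with no test. Medians of log2 ratios are of CPM plus a pseudocount of 1. A value per suffix was taken from 20 cells or more, and its order from 10 or more. The steps were checked on simulated counts. Every one of the 50 genes at 10 CPM or more in a class is named with its highest class, and at most 4 genes of each list of related genes are named, from those with the highest levels. The choice to describe these families, and the lists, were made with earlier results of these data known. Alternatives were stricter filters, doublets kept, a resolution of 2, gating cell by cell, means over cells, each set of 4 suffixes alone, a minimum of 20 CPM and a fold of 3. Leaving out each suffix in turn was added after the data were seen.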

Additional observations from a re-analysis of the deposited data

How the results depend on the processing

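Counts of genes kept their size within 1.5 times of the values reported under every setting except the larger fold. With a fold of 3 in place of 2, 5 genes were apart between smooth muscle-like and pericyte-like cells, 11 between fibroblast-like and mesothelial-like cells and 6 between Pi16 and Dpp4 fibroblasts and the others. Leaving out each suffix in turn, chosen after seeing the data, gave 38 to 39 genes at 10 CPM, 10 to 12 highest in fibroblast-like cells, 9 to 11 apart between endothelial classes, 12 to 14 between mural classes, 15 to 19 between fibroblast-like and mesothelial-like cells and 11 to 14 among fibroblasts.

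Of 51 differences in 4 comparisons, 8 turned in direction under at least 1 of these settings, in 23 values in all, of which 20 concern the pericyte-like class. The log2 ratios of smooth muscle-like over pericyte-like cells were, for Mmp2, Mmp16, Adamts3, Adamtsl1 and Adamtsl3, 3.64, 1.52, 0.15, 4.78 and 0.90 with stricter filters, 0.51, 1.40, 0.30, 3.29 and 0.42 with doublets kept, and 2.39, 1.50, 0.86, 1.29 and 0.25 at a resolution of 2. Gated cell by cell, they were 2.54 for Mmp2, 2.17 for Mmp16, 0.57 for Adamts3, 3.08 for Adamtsl1 and -1.56 for Timp4. The log2 ratio of Pi16 and Dpp4 fibroblasts over the others was 1.36 for Adamts6 and 1.11 for Adamts19 gated cell by cell, and 0.056 for Adamts6 in suffixes 1 to 4 alone. The cause was not tested. With stricter filters, no value could be had for lymphatic against blood endothelial-like cells. The highest class was kept for 27 to 35 of the 39 genes over 7 settings. A class with too few cells in a setting did not enter it, and its genes then count as moved. Schwann-like and adipocyte-like cells dropped out in this way in suffixes 1 to 4, and epithelial-like and NK-like cells in suffixes 5 to 8. These counts therefore also reflect missing classes. Mmp19 was highest in mesothelial-like and Adamts2 in fibroblast-like cells in 5 of the 7 settings. No paired analysis was possible because no test was run and the labels give no replicate number to a suffix, so orders within a suffix are descriptions. Small classes limit precision: Schwann-like, NK-like and adipocyte-like levels rest on 104, 96 and 116 cells.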

Other observations

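Timp1 stood out in suffix 7, with 373 CPM in fibroblast-like cells and 948 CPM in cluster 5, where the other suffixes held 94.997 to 241 CPM. Without suffix 7, Timp1 was 79.6 CPM in place of 181 CPM in cluster 4 and 32.7 CPM in place of 134 CPM in cluster 9.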
